A study of Mus musculus with 4 samples.

Results

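The genes described here encode 8 enzymes that add adenosines to the 3′ ends of RNA. Tent5a, Tent5b, Tent5c, Tent5d and Tent2 are noncanonical poly(A) polymerases, whereas Papola, Papolb and Papolg belong to the canonical family, so the set is wider than the noncanonical enzymes alone. They were chosen by name, as every probe set whose platform gene symbol, current or former (Fam46a to Fam46d for the Tent5 genes, Papd4 for Tent2), is 1 of these 8 and no other gene. The family was taken up because the difference of Tent5b between genotypes was already known, so the differences of these 8 genes between genotypes are read as a description only, and where the fit over all probe sets calls one, nothing is read from the call. The rule found 15 of the 45037 mouse probe sets, for 7 of the 8 genes. Tent5d was matched to no probe set through the annotation used here and was not analysed. Of the 15 probe sets, 14 lay above the filter on low signals, for 6 genes, and the remaining one is the single Tent5a probe set.

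RNA of whole testes was hybridised to 4 Affymetrix arrays, 2 of Taf7l knockout mice and 2 of wild type littermates. All 4 arrays are of 8-week-old males described as C57BL/6J. Taf7l, an X-linked gene active mainly in germ cells, encodes a relative of Taf7, a subunit of the core promoter factor TFIID. The making of the allele is not described in the sources used here. The labels call the arrays biological replicates, but the second knockout array carries replicate number 2 in its title and 1 in its description. If both knockout arrays came from 1 animal, the p-values below would rest in part on a technical spread.

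Poly(A) tails protect messenger RNA and promote its translation. The canonical nuclear polymerases, Papola and Papolg among them, add the first tail after the transcript is cleaved. Noncanonical cytoplasmic enzymes, the Tent5 family and Tent2 among them, can lengthen tails later, while deadenylases shorten them. In male germ cells many transcripts are stored for days before they are translated, since transcription stops as the spermatid nucleus condenses, and male mice lacking Tent5c, Tent5d or Papolb are infertile.

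The start-site regions of the Tent5 genes with a lower signal in the knockout and of Tent2, the gene whose probe sets were both higher, are printed because Taf7l belongs to the machinery that binds there. RefSeq sequences of GRCm38.p6 were found for all 8 genes, each from 250 bases before to 50 bases after an annotated start, and 10 such regions were listed for them. Capitals mark TATAA and CCAAT and also GGGCGG, on either strand, so that CCGCCC marks the last on the other strand.
Tent5b, chr4:133479883-133480182, plus strand: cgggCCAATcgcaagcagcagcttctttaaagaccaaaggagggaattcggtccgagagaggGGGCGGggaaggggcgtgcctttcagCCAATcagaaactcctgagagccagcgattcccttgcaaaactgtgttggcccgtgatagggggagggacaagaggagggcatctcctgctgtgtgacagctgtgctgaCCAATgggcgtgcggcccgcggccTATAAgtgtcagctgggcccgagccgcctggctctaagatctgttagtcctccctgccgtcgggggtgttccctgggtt
Tent5c, chr3:100489143-100489442, minus strand: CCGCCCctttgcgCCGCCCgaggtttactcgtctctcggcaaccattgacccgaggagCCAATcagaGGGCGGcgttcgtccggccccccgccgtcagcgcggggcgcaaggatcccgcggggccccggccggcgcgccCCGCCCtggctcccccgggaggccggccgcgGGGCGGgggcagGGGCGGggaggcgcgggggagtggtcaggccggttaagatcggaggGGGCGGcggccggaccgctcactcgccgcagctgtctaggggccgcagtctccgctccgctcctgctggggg
Tent2, chr13:93192368-93192667, minus strand: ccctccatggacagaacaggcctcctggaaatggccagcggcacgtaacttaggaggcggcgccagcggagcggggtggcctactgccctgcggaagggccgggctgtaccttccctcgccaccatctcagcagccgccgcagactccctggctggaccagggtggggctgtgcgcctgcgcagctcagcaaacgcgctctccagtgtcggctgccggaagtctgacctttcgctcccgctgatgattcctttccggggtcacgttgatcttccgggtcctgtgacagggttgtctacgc
The Tent5b region holds CCAAT 3 times, GGGCGG 1 time and TATAA 1 time, with the first base of TATAA at position -29 from the start site. The Tent5c region holds GGGCGG 7 times and CCAAT 1 time, and the Tent2 region holds none of the motifs. Among the regions not printed, that of Papola also holds none. The Papolg region holds GGGCGG 3 times and CCAAT 1 time, and the Papolb region holds only CCAAT, 1 time. As the printed regions were picked by the direction of the signal, no link between motifs and direction is read from them. Over all 32851 such regions of the table, 37.4% hold CCAAT on either strand and 3.37% hold it at least 3 times. GGGCGG lies in 35.7% of the regions, and at least 3 times in 10.7% of them. The motif TATAA, which was added to the search after the sequences were seen, lies in 24.9% of them, and in 2.97% it lies on the gene's strand with its first base between -35 and -25. The longer TATAAA, which contains TATAA, occurs in 13.6% of regions and, among the 8 genes, only in the Tent5a regions. The cAMP-response element TGACGTCA occurs in 1.79% and in none of the 10 regions. These matches describe letters in a window and say nothing of what binds there.

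Values are the deposited linear signals, which MAS5 makes for each array, with a scaling that no source used here states. Median signals over the mouse probe sets were 45.3 and 45.7 on the knockout arrays, against 45.3 and 45.2 on the wild type arrays. Over the probe sets above the filter, medians were lower in the knockout, at 309.7 and 314.3, against 319.5 and 324.7 on the wild type arrays. Taf7l had 80.6 and 72.5 on the knockout arrays, against 829 and 818 on the wild type arrays. Spermatid markers such as the protamine and transition protein genes were bright, with 12 of 12 measured, and their summed signal was 480148 and 467540 on the knockout arrays, against 522887 and 504480 on the wild type arrays. Of these 12 genes, 11 were lower in the knockout (median log2 difference -0.15). Spermatocyte markers summed to 154934 and 156493 on the knockout arrays, against 165037 and 161919 on the wild type arrays, with 7 of 10 lower. Sertoli markers summed to 77611 and 74292 on the knockout arrays, against 64004 and 60803 on the wild type arrays, with 8 of 10 higher. The 5 measured Leydig markers, all higher in the knockout, summed to 20459.8 and 20906 on the knockout arrays, against 16641 and 16430.5 on the wild type arrays. Macrophage markers, 7 of 8 higher, summed to 2577 and 2920.2 on the knockout arrays, against 2356 and 2454 on the wild type arrays. Adipocyte markers summed to 971 and 1681 on the knockout arrays, against 875 and 4000.1 on the wild type arrays, and epididymis markers to 390.1 and 377 on the knockout arrays, against 417 and 857 on the wild type arrays, so wild type replicate 2 stands apart in both. For the actin control probe sets, the 3′ signal divided by the 5′ signal, a sign of RNA integrity, was 2.42 and 2.18 on the knockout arrays, against 2.09 and 1.999 on the wild type arrays. For the Gapdh control it ran the other way, at 0.927 and 0.938 on the knockout arrays, against 1.04 and 0.990 on the wild type arrays. The spermatid, spermatocyte, Sertoli, Leydig, macrophage and epididymis sums and both control ratios separate the genotypes without overlap. So do the sums of B and plasma cell markers and of erythroid markers, most of which lie under the filter. The part of all these in the values below was not tested. In whole testis, fewer cells of a type and less RNA per cell cannot be told apart.

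Tent5b showed the largest difference of the family. Its single probe set (1433877_at) had a signal of 266 and 355 on the knockout arrays, against 729.8 and 771 on the wild type arrays. Both knockout signals lay below both wild type signals, and the highest knockout value was 0.487 times the lowest wild type value. The mean was 311 ± 63.1 in the knockout and 750.5 ± 29.3 in wild type (SD, n = 2 each). The knockout was thus 2.44-fold lower on the scale of mean log2 signal (log2 difference -1.29, SE 0.15 from limma's fit over all kept probe sets). Among the 22519 kept probe sets this difference ranked 13 from the most negative, and 36 of them (0.160%) were at least 2-fold lower. The 2 knockout arrays differed from each other by 0.42 on the log2 scale, a wider gap than in 95.0% of kept probe sets, while the wild type arrays differed by 0.08. What Tent5b does in the testis is less well described than the roles of Tent5c and Tent5d.

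The Tent5b probe set was the only one of the 14 kept that passed the threshold of the whole fit (limma, Benjamini-Hochberg adjusted p under 0.05). Of all kept probe sets 1.39% passed, 0.941% as lower and 0.444% as higher. Tent5b passed narrowly, with a limma adjusted p of 0.047, and of 0.0497 after quantile normalization. Since the family was chosen for the Tent5b difference, nothing is read from its passing. Tent5b did not pass when no filter was set, but then 0 probe sets of the whole table passed, so that result is not particular to Tent5b. When the variance prior had no trend, 36 probe sets of the whole table passed and Tent5b was not among them. Leaving out any 1 array leaves a genotype with a single array, so only the size of the difference is read there. It ran between -1.50 and -1.08 on the log2 scale.

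The 5 genes nearest to Tent5b in profile were found by the root mean square distance between log2 signals, each centred on its own mean over the 4 arrays. Among 12235 other named genes, 15 lay within 0.2. Nearest was Sfmbt2, a Polycomb-related gene (distance 0.11), at 750.1 and 843 on the knockout arrays, against 2116 and 2122.5 on the wild type arrays. Next came the carboxypeptidase gene Cpa6 (0.12), at 166 and 201 on the knockout arrays, against 385 and 387 on the wild type arrays. Fbrs (0.15), the cell polarity gene Patj (0.15) and the guanylate cyclase activator gene Guca1a (0.15) followed. In all 5 of these genes both knockout arrays lay below both wild type arrays, and a profile over 4 arrays carries little beyond that split.

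**Figure D1:**
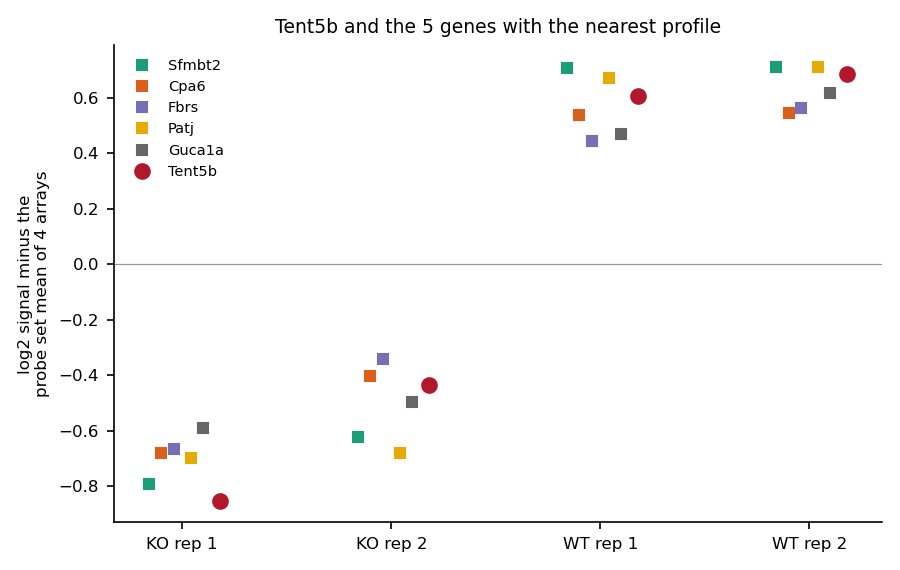
Log2 signal minus each probe set's own mean over the 4 arrays (vertical axis) for Tent5b (circles) and the 5 genes nearest to it (squares), on the knockout arrays (left) and the wild type arrays (right). Tent5b lies at the lower end on knockout replicate 1 and closer to the other genes on knockout replicate 2, with knockout signals of 266 and 355.

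Tent5c, which encodes the enzyme known in human myeloma as the tumour suppressor FAM46C and in mice as needed for intact sperm, was lower at both of its probe sets, by unequal amounts. The brighter (1429682_at) had 11599.5 and 11105 on the knockout arrays, against 12447.5 and 12545 on the wild type arrays. The dimmer (1448021_at) had 2162 and 2374 on the knockout arrays, against 2990.4 and 3132 on the wild type arrays. Both probe sets had knockout signals below wild type signals with no overlap. The difference was -0.14 (SE 0.050) at the brighter and -0.43 (SE 0.074) at the dimmer on the log2 scale, so the knockout mean was 1.101-fold and 1.35-fold lower. The ratio of the dimmer to the brighter signal was 0.186 and 0.214 on the knockout arrays, against 0.240 and 0.250 on the wild type arrays. The sources used here do not give where each probe set lies on the Tent5c transcript. After quantile normalization the differences were -0.060 and -0.30.

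The partners listed with Tent5c were Fndc3a, a fibronectin-domain protein needed for spermatogenesis in mice, its relative Fndc3b, and Plk4, the kinase of centriole duplication. At the brightest probe set of each, Fndc3a had 4235 and 4279 on the knockout arrays, against 4661 and 4426 on the wild type arrays. The limma adjusted p over all kept probe sets was 0.388 for Fndc3a, 0.673 for Plk4 and 0.980 for Fndc3b, with log2 differences of -0.09, -0.07 and -0.01. None of the 3 passed. The kept probe sets of Plk4 disagreed. Another had a mean signal of 2254, against 2279 at the brightest. Its signals were 1858 and 2050 on the knockout arrays, against 2742 and 2367 on the wild type arrays, with no overlap. Its log2 difference was -0.38 (limma adjusted p = 0.097). The dimmest was higher in the knockout with no overlap (0.14, limma adjusted p = 0.317).

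Tent5a, which in mouse bone cells acts on collagen transcripts, gave signals of 14.1 and 10.3 on the knockout arrays, against 9.56 and 8.97 on the wild type arrays. All 4 values lie well under 45.8, the lowest mean signal kept, where signal is mostly background, so their order is not read and no fold is given.

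Tent2, also called Gld2, the catalytic subunit that works with CPEB proteins in cytoplasmic polyadenylation, was the one gene of the 6 above the filter with a higher signal at each of its kept probe sets. The brighter (1419183_at) had 620.4 and 603 on the knockout arrays, against 524 and 525 on the wild type arrays. The dimmer (1433568_at) had 62.9 and 82.6 on the knockout arrays, against 62.2 and 60.7 on the wild type arrays. The groups did not overlap at either, but at the dimmer the lowest knockout and highest wild type signals were nearly equal, at a ratio of 1.01. The log2 differences were 0.22 (SE 0.075) and 0.23 (SE 0.15), the first a 1.17-fold higher mean. The dimmer probe set's difference became 0.033 without knockout replicate 2 and 0.43 without knockout replicate 1.

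Papolb encodes the testis poly(A) polymerase of spermatids, and the gene is an intronless copy of Papola. Its brighter probe set (1449208_at) had 8415 and 7898 on the knockout arrays, against 9174 and 8939 on the wild type arrays. Its other probe set (1456915_at) had 3147 and 2874 on the knockout arrays, against 3205 and 3201 on the wild type arrays. The groups did not overlap at either, and the differences were small, at -0.15 (SE 0.057) and -0.09 (SE 0.069) on the log2 scale. After quantile normalization they became -0.044 and 0.038.

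Papola, the general nuclear poly(A) polymerase, had 5 kept probe sets that did not point one way. The brightest (1424216_a_at) had 5481 and 6481 on the knockout arrays, against 6274 and 6244 on the wild type arrays, and the groups overlapped. The next (1455836_at) had 1812 and 1823 on the knockout arrays, against 2144 and 1936 on the wild type arrays, with no overlap. Over the 5, log2 differences ran between -0.36 and 0.20, with 4 below 0. The widest spread within a genotype was at 1424217_at, with 94.2 and 65.1 on the knockout arrays, against 88.2 and 52.4 on the wild type arrays, where the replicate gap was 0.53 and 0.75 on the log2 scale. The brightest probe set's difference of -0.07 turned to 0.056 after quantile normalization, and that of 1455836_at shrank to -0.043.

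Papolg, the second nuclear polymerase of the canonical family, had signals of 819 and 703 on the knockout arrays, against 722 and 726 on the wild type arrays, at its brighter probe set (1427241_at). The dimmer (1439641_at) had 76.2 and 68.7 on the knockout arrays, against 72.7 and 77.9 on the wild type arrays. The groups overlapped at both, and the log2 differences of 0.07 and -0.06 were smaller than their SE of 0.098 and 0.11.

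**Figure D2:**
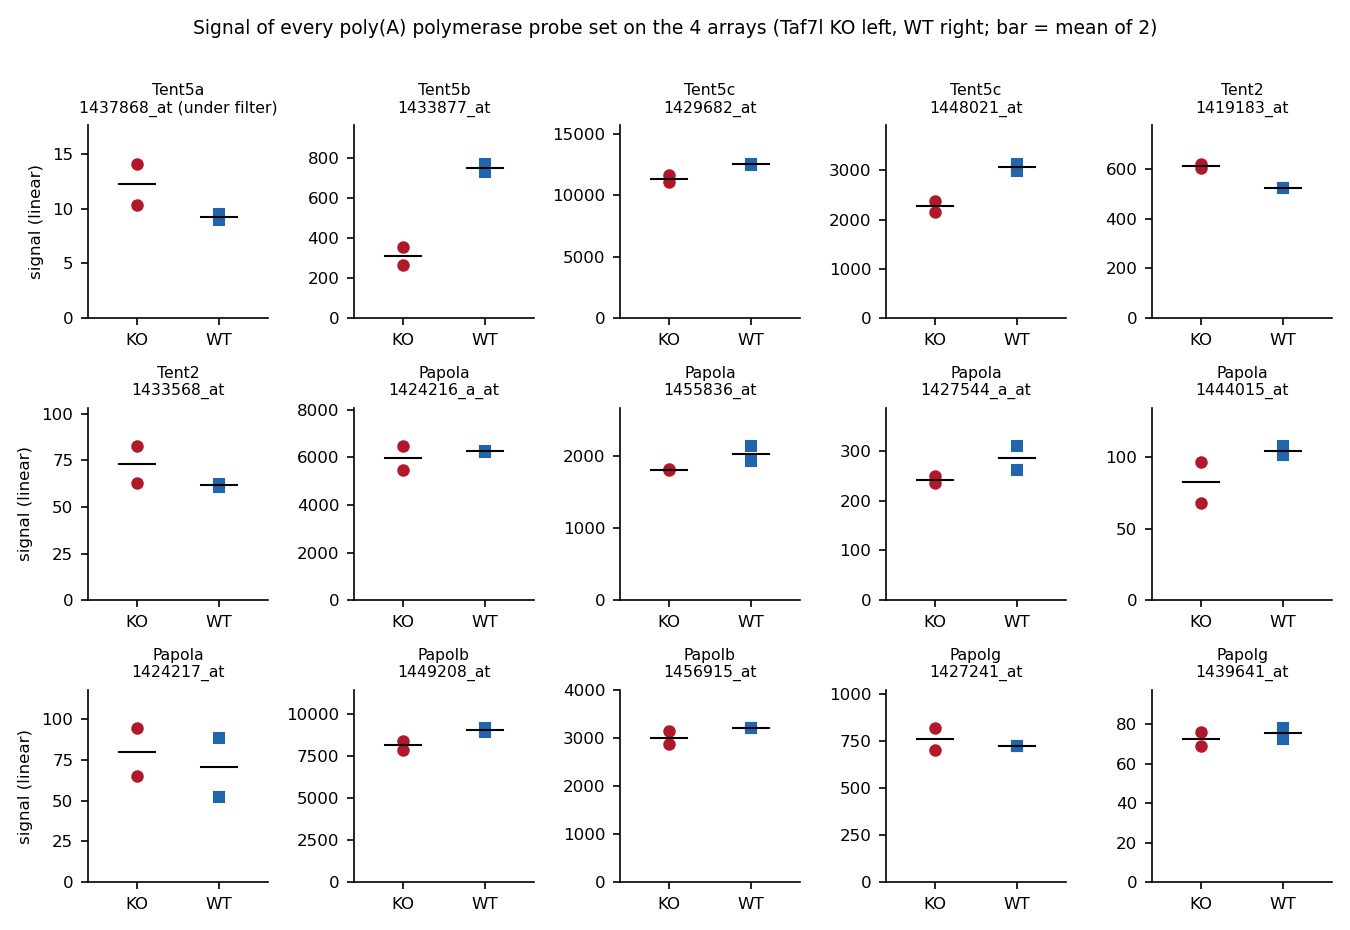
Linear signal (vertical axis, from 0) of each of the 15 probe sets on the 2 knockout arrays (circles, left) and the 2 wild type arrays (squares, right), with bars at the means. Tent5b shows the widest separation, and the Papolg and brightest Papola probe sets overlap between genotypes.

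Counted over the 14 kept probe sets, 10 differences were below 0 and 4 above. The genotypes did not overlap at 10 of the 14, 8 of them lower in the knockout and 2 higher, where 55.0% of all kept probe sets did not overlap (36.3% lower and 18.7% higher). The median difference was -0.11 over the 14, against -0.05 over all kept probe sets, of which 60.0% were below 0. The scaling of the arrays enters every one of these small differences.

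**Figure D3:**
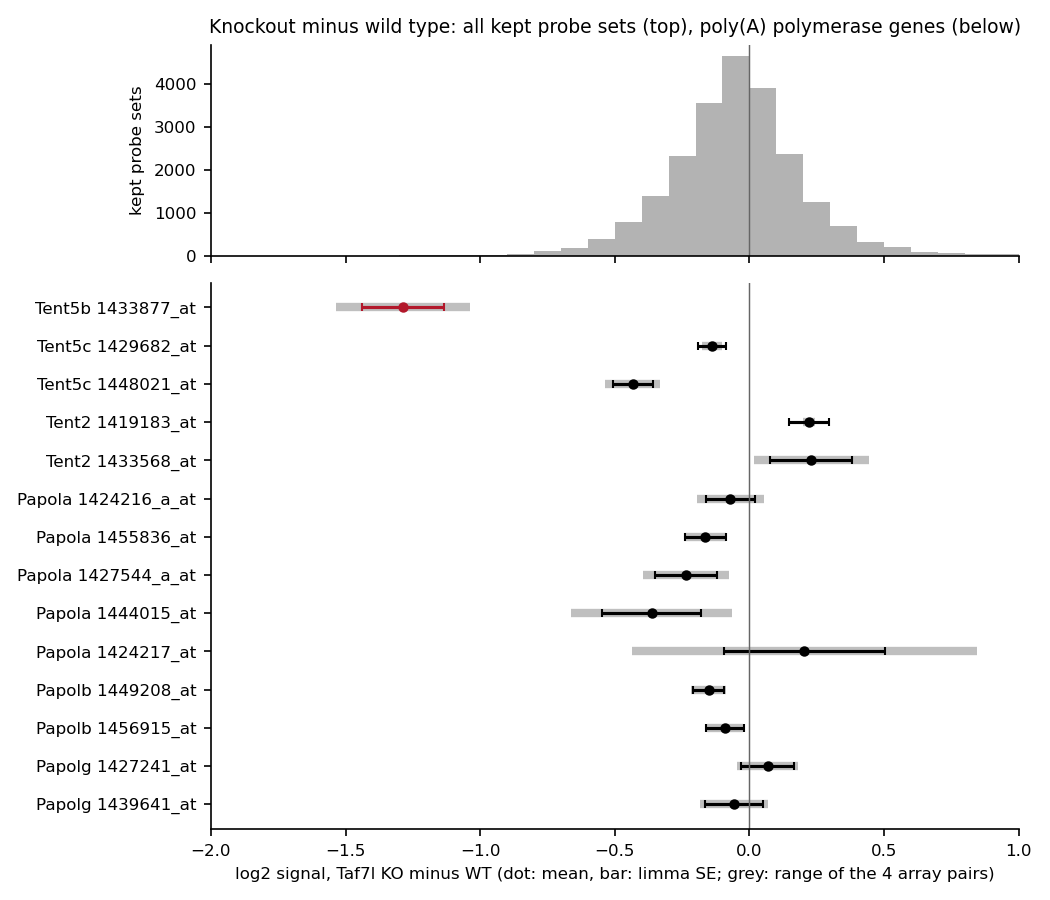
Knockout minus wild type log2 signal (horizontal axis, shown between -2 and 1) for all kept probe sets as a histogram (top) and for the 14 kept poly(A) polymerase probe sets (below), with dots for the mean difference, bars for limma's SE and grey bands for the range over the 4 pairs of a knockout with a wild type array. Tent5b at -1.29 lies apart from the other 13, which run between -0.43 and 0.23.

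The other genes of tail addition and removal were described from 7 lists of 70 genes, of which 65 had a kept probe set, each taken at its brightest. By limma, 0 of the 65 passed the adjusted threshold, where 1.74% of all named genes passed, and 12 had an unadjusted p under 0.05, where 27.9% of all named genes did. Of the 65, 39 were lower and 26 higher in the knockout, with a median difference of -0.06, against -0.05 over all 12241 named genes. None of their 143 kept probe sets passed either. Whether a list's median lies below or above 0 depends on the scaling: after quantile normalization it lay above 0 in 6 of the 7 lists, between 0.012 and 0.092, and at -0.084 in the other nucleotidyltransferases.

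Among the 6 other nucleotidyltransferases, 5 were lower (median -0.15) and 0 passed. Tut1, the polymerase that adds uridines to U6 RNA, had 428 and 455 on the knockout arrays, against 609 and 717 on the wild type arrays, with no overlap (log2 difference -0.58, SE 0.11, limma adjusted p = 0.063). Tent4b, a nuclear noncanonical polymerase, had 819 and 869 on the knockout arrays, against 942 and 974.5 on the wild type arrays (-0.18, adjusted p = 0.216).

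Of the 18 cleavage and polyadenylation factors, 11 were lower and 7 higher (median -0.09, but 0.026 after quantile normalization), and 0 passed. Pcf11, which links cleavage to termination, had 4053 and 4402 on the knockout arrays, against 5489.6 and 5118 on the wild type arrays, with no overlap (-0.33, limma adjusted p = 0.075). Cstf2, which reads the downstream element of the cleavage site and is X-linked, had 577 and 557 on the knockout arrays, against 701 and 694 on the wild type arrays (-0.30, limma adjusted p = 0.091). At the dimmer Cstf2 probe set the groups overlapped, with 211 and 223 on the knockout arrays, against 220 and 245 on the wild type arrays (-0.098, limma adjusted p = 0.612). Cstf2t, the autosomal germ cell copy of Cstf2, had 2846 and 2707 on the knockout arrays, against 2811 and 2900 on the wild type arrays, and the groups overlapped. Cstf2t was named after its values were seen.

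Among 10 kept genes of poly(A)-binding proteins and partners, 5 were lower and 5 higher (median 0.00), and 0 passed. The testis gene Pabpc6 had 10474.6 and 10671 on the knockout arrays, against 11611 and 12288.5 on the wild type arrays (-0.18, limma adjusted p = 0.131). Pabpc1 had 32637 and 30719 on the knockout arrays, against 37073 and 33800.4 on the wild type arrays (-0.16, adjusted p = 0.206). These genes and Pabpc2 are close copies, and signal shared between their probe sets was not tested. Of 7 cytoplasmic polyadenylation factors, 4 were lower and 3 higher. The germ cell translation factor Dazl had 8819 and 9114 on the knockout arrays, against 7485 and 6920.1 on the wild type arrays, with no overlap (0.32, limma adjusted p = 0.067). The storage protein Ybx2 had 14071 and 16526.5 on the knockout arrays, against 17346 and 16989 on the wild type arrays (-0.17, adjusted p = 0.291).

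Of 18 kept deadenylase genes and adaptors, 9 were lower and 9 higher (median -0.01), and 0 passed. Cnot11, a subunit of the CCR4-NOT deadenylase, had 763 and 753 on the knockout arrays, against 1056 and 1025 on the wild type arrays, with no overlap (-0.46, limma adjusted p = 0.051). Tob1, an adaptor that brings this deadenylase to its targets, had 1471 and 1847 on the knockout arrays, against 2204 and 2103 on the wild type arrays (-0.39, adjusted p = 0.136).

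The last list holds TFIID subunit genes linked to Papolb in mouse spermatids, where Papolb has been described to lengthen the tails of some transcription factor transcripts. Taf10 had 4844 and 5191 on the knockout arrays, against 5563 and 5252 on the wild type arrays, and Taf13 had 1095 and 1156 on the knockout arrays, against 1230.2 and 1233 on the wild type arrays. At -0.11 (limma adjusted p = 0.377) and -0.13 (adjusted p = 0.319), neither passed. The dimmer Taf10 probe set fell further and did not pass (-0.36, limma adjusted p = 0.101). It had 175 and 170 on the knockout arrays, against 213 and 231 on the wild type arrays, with no overlap. Over the list 2 genes were lower and 1 higher (median -0.11), the higher being Taf12, at 1086 and 1052 on the knockout arrays, against 1031 and 1010.0 on the wild type arrays, which was named after its values were seen. The arrays measure the amount of RNA and not the length of its tail.

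**Figure D4:**
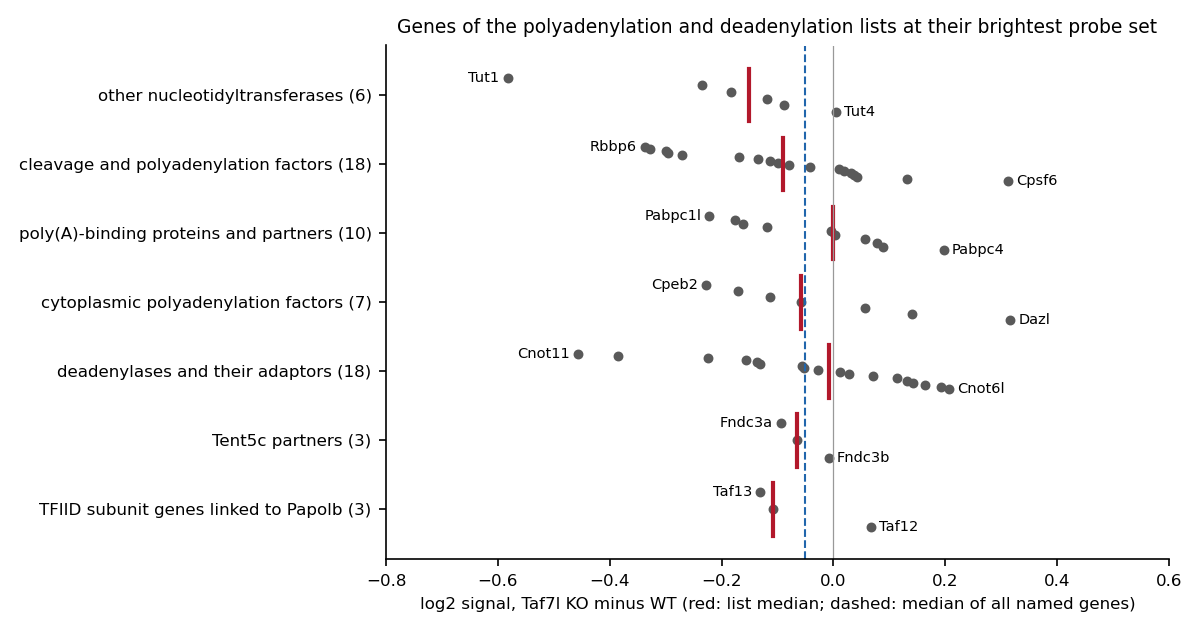
Knockout minus wild type log2 signal (horizontal axis) of each gene of the 7 lists at its brightest kept probe set (dots), with list medians (red bars), the median of all named genes (dashed line at -0.05) and, in parentheses, the number of genes. Tut1 at -0.58 and Cnot11 at -0.46 lie lowest, Dazl at 0.32 and Cpsf6 at 0.31 highest, and none of the 65 passed the threshold.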

How the data were processed

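The authors' deposited table holds linear intensity values, 1 signal for each of 45101 probe sets on each of 4 arrays, made with MAS5 per the submitters' processing notes, which name no version. Detection calls were not used here. The 64 control probe sets were left out, and a filter kept the 22519 whose mean signal was no lower than its median over probe sets (45.8). Values entered the fit as log2 signal, with an offset of 0. Genes were named through the platform annotation, updated with RefSeq (GRCm38.p6): 34945 probe sets had 1 symbol, 932 had several and 9160 had none. The sources used here name no build for the probe sets. The genotype term was fitted in limma 3.58.1 under R 4.3.3 (eBayes with a trend, 2 residual and 3.17 prior degrees of freedom), two-sided, adjusted by Benjamini-Hochberg. The number of arrays limits the precision: with 2 arrays against 2, the smallest p of an exact permutation test is 0.333. The fit was tested on simulated data.

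The 8 genes, the lists and the rule for naming genes were chosen with earlier results of these data known. The rule takes each poly(A) polymerase probe set, Taf7l, each called list gene, the 2 of each list that have the smallest p, and the 5 genes nearest to Tent5b. The alternatives left out each array in turn, used the replicate number as a block, normalized by quantiles or centred on medians, added an offset of 16, dropped the filter or set it at the 75th percentile, dropped the variance trend, took only single-transcript probe sets, or averaged the probe sets of a gene. Start-site regions are RefSeq's, and protein sequences were not used here.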

Additional observations from a re-analysis of the deposited data

How the results depend on the processing

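The 312 probe sets passing over the whole table (32.1% of them higher) became 148 with quantile normalization (61.5% higher), 646 with median centring (22.8%), 2375 with the 75th percentile filter (18.2%), 36 without a variance trend (69.4%), 541 with the replicate block and 179 with single-transcript probe sets. With no filter limma called 0, though 6192 had an unadjusted p under 0.05. Leaving out each array in turn gave between 0 and 0 calls, with 3084 to 5500 at that unadjusted level, in fits that take the single remaining array to vary as the other genotype does. Replicate numbers were not taken to pair the arrays (r = 0.032 between the replicate gaps of the knockout and wild type arrays). Of the poly(A) polymerase probe sets, 1 passed in the main fit. With median centring and with the 75th percentile filter the dimmer Tent5c probe set joined Tent5b. In those settings the calls over the whole table rose too, from 312 to 646 and 2375, so nothing is read from the Tent5c call. The count of poly(A) polymerase probe sets passing thus became 2 in both. It became 0 with no filter, without a trend and with any 1 array left out (0 to 0). Over the 12 alternatives the Tent5b difference ran between -1.50 and -1.08. The pathway lists, with 0 genes passing, gained 1 with median centring (Cnot11), 8 with the 75th percentile filter (2 higher, 6 lower) and 2 with the mean of probe sets (Cnot11 and Tut1). As the whole table rose to 646 calls with median centring and 2375 with that filter, nothing particular to the lists is read from these gains. For the mean of probe sets the calls over all genes were not counted. Of 161 values of the 14 kept poly(A) polymerase probe sets under alternatives, 154 kept their sign. The other 7 were spread over 5 probe sets. Many of the 161 could not change sign, so the count says little of stability. Changing the filter, dropping the trend, adding the block or taking only single-transcript probe sets leaves a probe set's difference as it was. With quantile normalization the brightest Papola probe set was at 0.056 and the dimmer Papolb probe set at 0.038. With each array left out in turn, the brightest Papola probe set ran between -0.19 and 0.050 (above 0 without knockout replicate 1) and Papola 1424217_at between -0.17 and 0.58 (below 0 without wild type replicate 2 or knockout replicate 1). The brighter Papolg probe set ran between -0.042 and 0.18 (below 0 without knockout replicate 1) and the dimmer between -0.13 and 0.018 (above 0 without knockout replicate 2). The cause was not tested. Of 91 list medians under alternatives, 65 stayed within 1 SD of the arrays' spread, and quantile normalization turned 6 of the 7 from below 0 to above 0. Dropping the trend or adding the block could not move a list median. Signals near 45.8, as at the dimmer Tent2 and Papolg probe sets and at Papola 1424217_at, are close to background and limit what their differences show.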
